A study of Homo sapiens with 6 samples.

Results

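The TSC complex and its nearest partners in the control of mTORC1 were examined as a group of 10 genes that was set by name, TSC1, TSC2, TBC1D7, RHEB, DDIT4, SESN2, MTOR, RPTOR, AKT1S1 and DEPTOR, out of 35810 genes with a matched transcript. RNA-seq of polyadenylated RNA was made from SPT5-AID cells, a derivative of the colorectal adenocarcinoma line DLD-1 in which the elongation factor SPT5 carries an auxin-inducible degron. By lentiviral infection and puromycin selection the cells had received an shRNA that was either directed at ARMC5 (shARMC5) or nontargeting (shNT), with 3 libraries of each. ARMC5 is the CUL3 adaptor through which the study asked how RNA polymerase II is degraded, and the comparison asks which transcripts differ when it is knocked down. All 6 libraries thus share the SPT5-AID background, the lentiviral vector and the selection. Their labels name no auxin, the construct behind shARMC5 in these libraries is not specified, and no source used here says whether the line is 1 clone.

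mTORC1 is the protein kinase complex that couples growth to nutrients, growth factors, energy and stress. TSC1, TSC2 and TBC1D7 form a complex that acts as the GTPase-activating protein for RHEB, the small GTPase that in its GTP-bound form activates mTORC1 at the lysosome. Loss of TSC1 or TSC2 causes tuberous sclerosis and leaves mTORC1 active when nutrients or growth factors are low. These are steps between proteins, and RNA-seq measures only the level of each transcript.

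The files held between 26201112 and 40866478 estimated reads per library. A level is given as CPM, the reads of a gene per 1000000 reads on genes after TMM normalization, or as TPM, which is a share of 1000000 transcripts and corrected for transcript length. ARMC5, the targeted gene, had 10.8, 12.0 and 12.9 CPM in shARMC5 replicates 1, 2 and 3 and 23.0, 25.9 and 26.7 CPM in shNT replicates 1, 2 and 3 (log2 fold change -1.09, standard error 0.08, adjusted P = 5.32e-07 from edgeR's quasi-likelihood test), so the labels hold for it. All 7 measured markers of colorectal epithelium were at 1 TPM or more in every library. KRT20 was also planned as such a marker and is not among the 7. Of the 7 markers of blood, endothelium and fibroblasts, 6 were under 0.5 TPM in every library, with COL1A1 reaching 0.727 TPM in 1 library. The study's methods call its replicates biological, while the labels do not say how the cultures were kept apart, and the P values measure the spread between these libraries.

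In shARMC5 cells 2 of the 10 genes were lower than in shNT cells, DDIT4, which encodes a stress-induced inhibitor of mTORC1, and TSC2. DDIT4 fell by 0.32 on the log2 scale (standard error 0.05, adjusted P = 0.0041) and TSC2 by 0.15 (standard error 0.04, adjusted P = 0.0672). The other 8 genes did not pass the threshold, an adjusted P value under 0.1 from edgeR's quasi-likelihood test with Benjamini-Hochberg adjustment over the 13737 genes tested. All 10 reached 10 counts in 3 or more libraries, the filter for testing. Of all tested genes 7.75% were called, and 3.3% were called lower. The 10 genes were chosen with earlier results of these data known, so this comparison is a description only. The median log2 fold change was -0.015 over the 10 genes and -0.0014 over all tested genes. DDIT4 and TSC2 were also the 2 genes of the 10 whose CPM did not overlap between the groups, which held for 23.4% of all tested genes. In TPM 4 of the 10 did not overlap, RHEB and DEPTOR as well, against 16.3% of all tested genes. In bulk libraries, fewer cells that express a gene and less RNA of it per cell cannot be told apart.

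**Figure D1:**
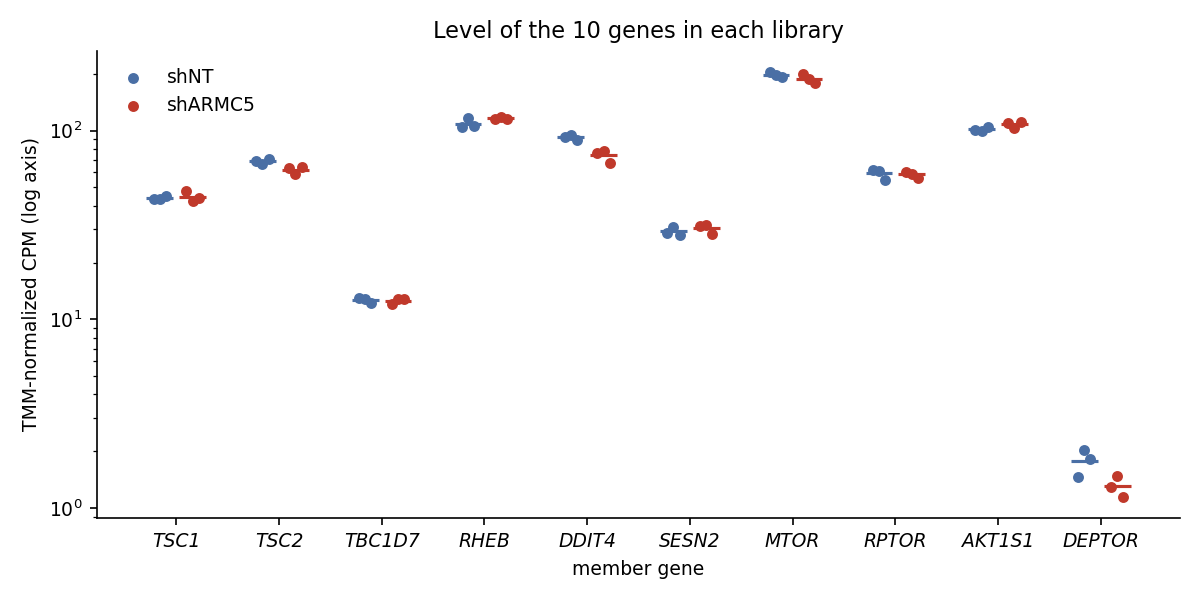
TMM-normalized CPM of the 10 genes on a log axis, with 1 point for each of the 3 shNT (blue) and 3 shARMC5 (red) libraries and a line at the mean of each group. The groups separate for DDIT4 and TSC2, and DEPTOR lies between 1.15 and 2.04 CPM, below all others.

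Per transcript length the order of the levels in shNT cells ran from RHEB at 145 ± 9.47 TPM (SD, n = 3) to DEPTOR at 1.07 ± 0.150 TPM. RHEB lay above its nearest neighbour in every shNT library, by 1.74-fold over DDIT4 (83.6 ± 3.97 TPM). DDIT4 and AKT1S1 (77.8 ± 3.03 TPM) overlapped in range. TSC2 (40.5 ± 2.82 TPM) and MTOR (35.5 ± 2.19 TPM) overlapped as well, while AKT1S1 lay 1.92-fold above TSC2 and MTOR 1.91-fold above TBC1D7 (18.6 ± 0.899 TPM). RPTOR (13.2 ± 1.35 TPM) and SESN2 (12.4 ± 0.815 TPM) overlapped, and TSC1 had 10.5 ± 0.791 TPM. Of the 3 subunits of the TSC complex, TSC2 thus had the highest TPM and TSC1 the lowest in shNT cells. In shARMC5 cells TSC2 had 27.2 ± 1.61 TPM, below MTOR at 32.4 ± 1.37 TPM, and their ranges there did not overlap. The order of this pair in shNT cells rested on 2 short TSC2 transcripts with few reads, described with the TSC2 transcripts, since the other 66 summed to 33.0 ± 2.85 TPM there, under the mean of MTOR.

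TSC1, the scaffold subunit that stabilizes TSC2, lies on chromosome 9 from 132891348 to 132946874 on the minus strand of GRCh38 (ENSG00000165699). It had 47.9, 42.2 and 44.1 CPM in shARMC5 replicates 1, 2 and 3 and 43.6, 43.3 and 45.3 CPM in shNT replicates 1, 2 and 3. The shARMC5 libraries held both the highest and the lowest value, and the groups overlapped. With an adjusted P value of 0.884 in edgeR, its log2 fold change of 0.02 (standard error 0.05) was not called. Salmon divided the reads of TSC1 among 30 transcripts in a way that changed from library to library within a group. The MANE Select transcript ENST00000298552, the agreed reference for this gene, was given 679 reads in shARMC5 replicate 2 and 0 in the other shARMC5 libraries, against 234, 492 and 555 reads in shNT replicates 1, 2 and 3. The nonsense-mediated decay transcript ENST00000643625 was at 0 in 2 shARMC5 libraries and in shNT replicate 1. By contrast, the coding transcript ENST00000646625, with the largest mean share of the TSC1 TPM (17.0%), had reads in every library. It was given 393, 192 and 520 reads in shARMC5 and 431, 170 and 259 reads in shNT replicates 1, 2 and 3. Its log2 fold change was 0.47 (unadjusted P = 0.448 in edgeR). No transcript of TSC1 had an unadjusted P value under 0.266.

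TBC1D7, the third subunit of the complex, lies on chromosome 6 from 13266542 to 13328583 on the minus strand (ENSG00000145979). It had 12.1, 12.9 and 12.8 CPM in shARMC5 and 13.0, 12.9 and 12.2 CPM in shNT replicates 1, 2 and 3. The groups overlapped (log2 fold change -0.013, standard error 0.08, adjusted P = 0.958). RHEB, the target of the complex, lies on chromosome 7 from 151466012 to 151520120 on the minus strand (ENSG00000106615) and had 115.0, 117 and 115.3 CPM in shARMC5 against 104, 116 and 105 CPM in shNT replicates 1, 2 and 3. One shNT library, replicate 2, lay within the shARMC5 range and the others lay below it. RHEB did not pass the threshold (log2 fold change 0.09, standard error 0.04, adjusted P = 0.218). It was called without shNT replicate 2, which alone made the groups overlap (log2 fold change 0.15, adjusted P = 0.0248). Without any other single library it was not called (adjusted P = 0.275 to 0.543 in edgeR). In TPM the RHEB groups did not overlap, by a narrow margin, with 154.0, 157 and 154.4 TPM in shARMC5 against 147, 153.8 and 135 TPM in shNT replicates 1, 2 and 3. Of the 3 RHEB pseudogenes measured, RHEBP2 held at most 34.7 reads in a library, RHEBP1 at most 27.8 and RHEBP3 none by salmon's own division of shared reads, which does not bound the reads that RHEB and these copies could exchange.

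TSC2 encodes tuberin, the subunit with the GTPase-activating domain, and lies on chromosome 16 from 2047967 to 2089491 on the plus strand (ENSG00000103197). It had 63.3, 58.6 and 64.3 CPM in shARMC5 and 68.9, 66.2 and 70.9 CPM in shNT replicates 1, 2 and 3, on 1622 to 2312 reads per library. Every shARMC5 library was below every shNT library, and the closest values, 64.3 and 66.2 CPM, were near each other. By permutation of the 6 libraries the exact two-sided P was 0.1, and 3 libraries against 3 cannot give a smaller one. The group means were 62.1 ± 3.04 and 68.7 ± 2.35 CPM (SD, n = 3), so that the level fell by 9.59%. TSC2 ranked 842 of the 13737 genes by P value. Without a length offset it was not called with DESeq2 (adjusted P = 0.111), nor in edgeR when the library left out was shARMC5 replicate 2 (0.301) or replicate 1 (0.195) or 3 (0.222) of shNT, nor without transcripts under 400 bases in edgeR (log2 fold change -0.13, adjusted P = 0.105).

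In TPM the difference was larger. TSC2 had 29.0, 26.0 and 26.5 TPM in shARMC5 and 41.9, 42.5 and 37.3 TPM in shNT replicates 1, 2 and 3, and on the means it fell by 32.96%. The groups were further apart on this scale than in CPM. The scales differ by the average effective length of the transcripts to which salmon gave the reads. For TSC2 this length was 3082, 3167 and 3334 bases in shARMC5 and 2416, 2191 and 2610 bases in shNT replicates 1, 2 and 3 (exact permutation test, P = 0.1, the smallest possible). The average length did not overlap between the groups for 1 of the 10 genes, TSC2, and for 11.9% of all tested genes, so a single such gene among 10 is near the background. With that length as an offset in edgeR, TSC2 fell by 0.56 on the log2 scale (standard error 0.06, adjusted P = 0.00517), as it did in DESeq2 with the same offset (log2 fold change -0.56, adjusted P = 1.07e-12), and DDIT4 stayed called (log2 fold change -0.33, adjusted P = 0.0547). With this offset 1.71% of all tested genes were called, 2 of the 10 genes among them.

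**Figure D2:**
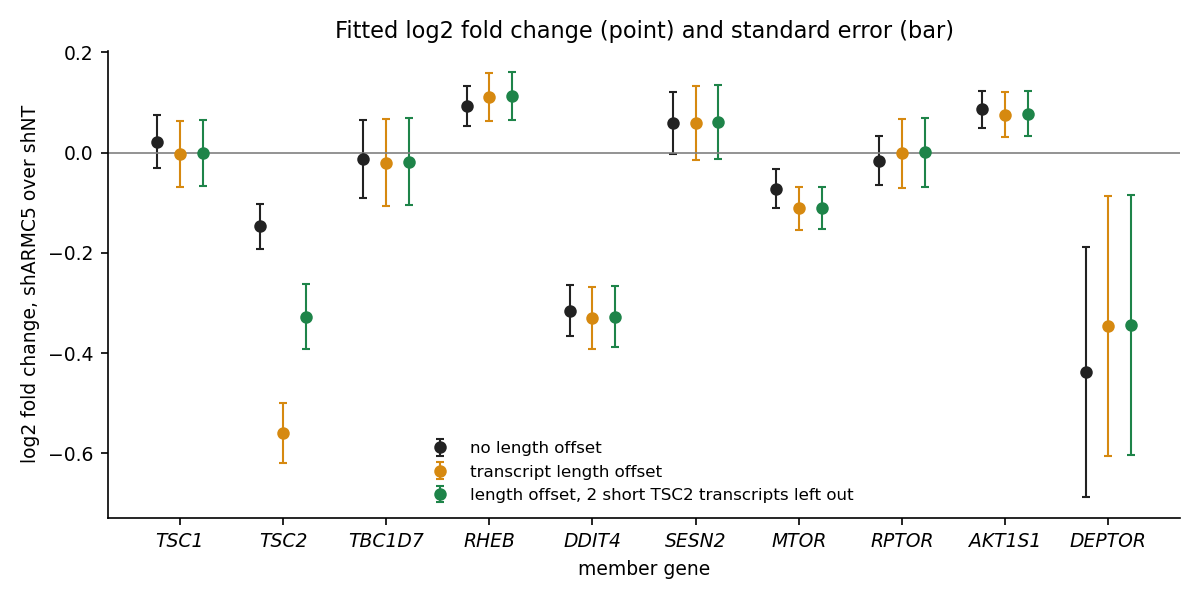
Fitted log2 fold change of shARMC5 over shNT (points) with its standard error (bars) for the 10 genes from edgeR, without a length offset, with it, and with it after 2 short TSC2 transcripts were left out. TSC2 moves from -0.15 to -0.56 and -0.33, and DDIT4 lies between -0.33 and -0.32 in all 3 fits.

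The length difference of TSC2 was traced to its transcripts, by a choice made after its values were seen. Of its 68 listed transcripts 44 had reads. Transcripts with few reads weigh heavily in an average over TPM when they are short, and 2 short TSC2 transcripts were given more reads in every shNT library than in any shARMC5 library. ENST00000642206, of 335 bases in the files, was given no reads in any shARMC5 library and 12.4, 23.1 and 4.79 reads in shNT replicates 1, 2 and 3. ENST00000645192, of 209 bases, had 3.45, 1.23 and 1.57 reads in shARMC5 and 6.42, 13.3 and 3.51 reads in shNT replicates 1, 2 and 3. Together they held 0.110% of the TSC2 reads in shARMC5 and 0.982% in shNT cells on the mean, but 4.31% and 18.1% of the TSC2 TPM. Left out, they lowered the fall of TSC2 with the length offset to 0.33 on the log2 scale (standard error 0.06), and edgeR still called it (adjusted P = 0.0612).

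The shorter of the pair is shown here because most of its bases also lie in exons of a longer TSC2 transcript. ENST00000645192 is annotated as a retained intron transcript and covers chr16:2076137-2076665 on the plus strand of GRCh38 in 2 exons, which touch exons 24 and 25 of the 42 exons of the TSC2 transcript ENST00000219476. Its sequence from GENCODE 44 is printed 5′ to 3′, with the 129 bases that lie in those exons in lower case and the 80 bases of the following intron in capitals.
ENST00000645192: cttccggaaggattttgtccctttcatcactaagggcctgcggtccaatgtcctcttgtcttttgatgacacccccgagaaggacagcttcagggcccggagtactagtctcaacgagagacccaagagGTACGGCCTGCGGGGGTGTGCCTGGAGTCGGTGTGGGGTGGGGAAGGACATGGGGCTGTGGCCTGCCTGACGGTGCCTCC
A read on the lower-case bases fits longer TSC2 transcripts too, and salmon divides such reads by its own estimate. The other short transcript has a later version in GENCODE 44 with another length, so its sequence as used in the files is not shown.

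Split by the number of reads, the 18 TSC2 transcripts that passed the same filter summed to 62.1, 54.7 and 63.1 CPM in shARMC5 and 59.3, 54.9 and 67.0 CPM in shNT replicates 1, 2 and 3. These groups overlapped widely, with means of 60.0 ± 4.57 and 60.4 ± 6.10 CPM (SD, n = 3; exact permutation test, P = 0.9). The other 50 transcripts, most of them with no or few reads, summed to 1.17, 3.90 and 1.27 CPM in shARMC5 and 9.56, 11.3 and 3.93 CPM in shNT replicates 1, 2 and 3. The groups did not overlap here, but shARMC5 replicate 2 and shNT replicate 3 nearly coincided. The mean of TSC2 as a whole fell by 6.59 CPM from shNT to shARMC5 cells, that of these 50 transcripts fell by 6.15 CPM and that of the 18 fell by 0.436 CPM. This division is a description only, since the filter itself places a transcript that is near 0 in 1 group and uneven in the other among the 50. The average effective length over the 18 was 3763 ± 53.2 bases in shARMC5 and 3675 ± 96.6 bases in shNT cells (SD, n = 3), and there the groups overlapped. Over the 66 transcripts without the 2 short ones it was 3335 ± 122 and 2919 ± 125 bases, and there the groups did not overlap. Among the 50, ENST00000439673, a coding transcript of 5287 bases, was given 145 and 95.6 reads in shNT replicates 1 and 2 and none in the other 4 libraries. ENST00000645024, a retained intron transcript, was given 72.0 reads in shARMC5 replicate 2 and 120 in shNT replicate 2 and none elsewhere.

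Split by annotated type, the 19 coding transcripts summed to 49.7, 44.3 and 45.2 CPM in shARMC5 and 49.7, 43.7 and 49.3 CPM in shNT replicates 1, 2 and 3. These groups overlapped (log2 fold change -0.035, standard error 0.07, adjusted P = 0.905 in edgeR with every gene split in this way). The 49 transcripts of other types summed to 13.7, 14.5 and 19.2 CPM in shARMC5 and 19.0, 22.7 and 21.5 CPM in shNT replicates 1, 2 and 3, where shARMC5 replicate 3 lay above shNT replicate 1. Their log2 fold change was -0.42 (standard error 0.14, unadjusted P = 0.0186, adjusted P = 0.317). Neither class passed the threshold, which 1.24% of all classes tested did. The transcripts of other types of the other members went both ways in this fit, and none was called. Their log2 fold changes ran from -0.85 for DDIT4 (adjusted P = 0.586) to 1.68 for RPTOR (adjusted P = 0.385). Those of TSC1 fell by 0.63 (adjusted P = 0.573), with groups that did not overlap. With the length offset the other types of TSC2 were called (log2 fold change -0.70, adjusted P = 0.0278) and its coding transcripts were not (log2 fold change -0.35, adjusted P = 0.165). The average effective length of the coding class was 5377, 5359 and 5369 bases in shARMC5 and 4428, 3703 and 4883 bases in shNT replicates 1, 2 and 3. The short ENST00000642206 counts as coding here, by the type of its longer GENCODE 44 version, so its class is uncertain. Within the other types, the 10 transcripts annotated for nonsense-mediated decay summed to 1.42, 0.857 and 1.96 CPM in shARMC5 and 2.78, 3.01 and 2.79 CPM in shNT replicates 1, 2 and 3, and the 35 retained intron transcripts to 12.2, 13.6 and 17.1 against 16.1, 17.9 and 18.7 CPM. These sums were looked at after the values were seen and are a description with no test. Of the 78.1 reads of the first class in shNT replicate 3, 41.5 were given to ENST00000471143, which had none in the other 5 libraries.

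**Figure D3:**
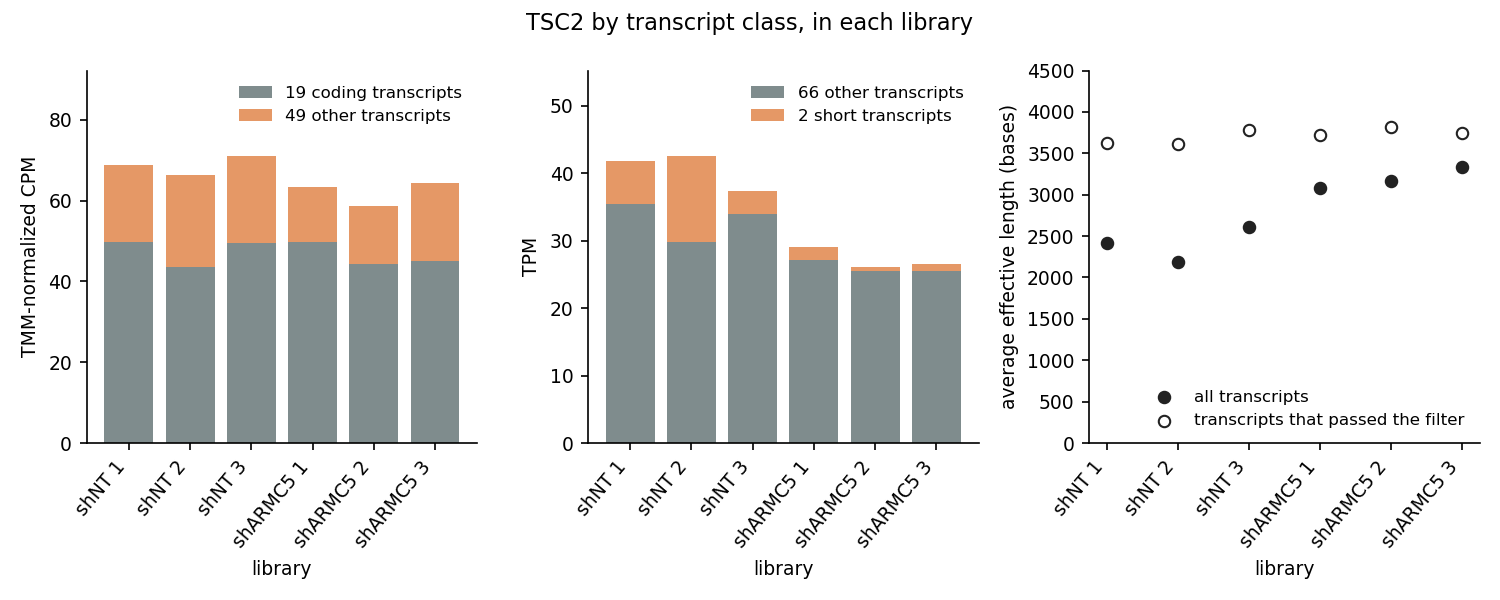
TSC2 in each of the 6 libraries, as CPM of its 19 coding and 49 other transcripts (left, stacked bars), as TPM of its 2 short and 66 other transcripts (middle, stacked bars) and as average effective length in bases (right). The 2 short transcripts add 3.36 to 12.6 TPM in shNT and 0.553 to 1.97 TPM in shARMC5 libraries, and the length over the transcripts that passed the filter (open points) lies between 3610 and 3823 bases in all libraries.

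On average 3 TSC2 transcripts held at least 10% of the TSC2 TPM. The share of the coding transcript ENST00000401874 was 19.0%, 27.4% and 23.0% in shARMC5 and 14.0%, 10.1% and 15.7% in shNT replicates 1, 2 and 3, and the share of the retained intron transcript ENST00000568366, of 562 bases, was 16.4%, 12.0% and 11.4% against 9.06%, 8.17% and 7.91%. Both shares did not overlap between the groups (exact permutation test, P = 0.1 each, the smallest possible), and both rise on their own when other transcripts of the gene are given less. The coding transcript ENST00000642797 overlapped.

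TSC2 ends next to PKD1, the polycystin-1 gene, which lies on the opposite strand and shares 784 exon bases with it. The library kit does not mark strand, so reads from the shared stretch cannot be told apart by strand. PKD1 had 75.3, 68.4 and 65.9 CPM in shARMC5 and 81.3, 77.8 and 81.2 CPM in shNT replicates 1, 2 and 3 and was called lower (log2 fold change -0.20, standard error 0.05, adjusted P = 0.0208). Its part in the TSC2 result was not tested. Among the other members, AKT1S1 shares 151 exon bases with TBC1D17 on the opposite strand, which was not called. TSC1 shares 349 bases with GFI1B, which had at most 19.2 reads in a library.

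DDIT4 encodes REDD1, which is induced by hypoxia, endoplasmic reticulum stress, DNA damage and glucocorticoids and inhibits mTORC1 through the TSC complex. The gene lies on chromosome 10 from 72273919 to 72276036 on the plus strand (ENSG00000168209). It had 76.4, 78.0 and 67.2 CPM in shARMC5 and 93.0, 94.4 and 88.9 CPM in shNT replicates 1, 2 and 3, on 1694 to 3078 reads per library. The lowest shNT library, at 88.9 CPM, was well above the highest shARMC5 library, at 78.0 CPM. The group means were 73.9 ± 5.86 and 92.1 ± 2.86 CPM (SD, n = 3), and the P value of the exact permutation test was 0.1, as small as it can be. DDIT4 ranked 203 of the 13737 genes by P value. Unlike TSC2, it had nearly the same average effective length in all libraries, between 1542 and 1578 bases, and its difference in TPM, 65.7 ± 6.33 against 83.6 ± 3.97 (SD, n = 3), was close to that in CPM. Its MANE Select transcript ENST00000307365 held 98.1% of its TPM in shARMC5 and 97.1% in shNT cells. Fitted on its own, that transcript had a log2 fold change of -0.31 (unadjusted P = 0.00505, adjusted P = 0.467 over all transcripts). As a whole gene DDIT4 was called in all 19 alternative fits, with log2 fold changes between -0.36 and -0.26. With every gene split by annotated type, its coding transcripts were called in edgeR (log2 fold change -0.31, adjusted P = 0.0926). In that split they were also called with a replicate term (0.0586). They were not called with the length offset (0.133) or with any 1 library left out (0.112 to 0.281).

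**Figure D4:**
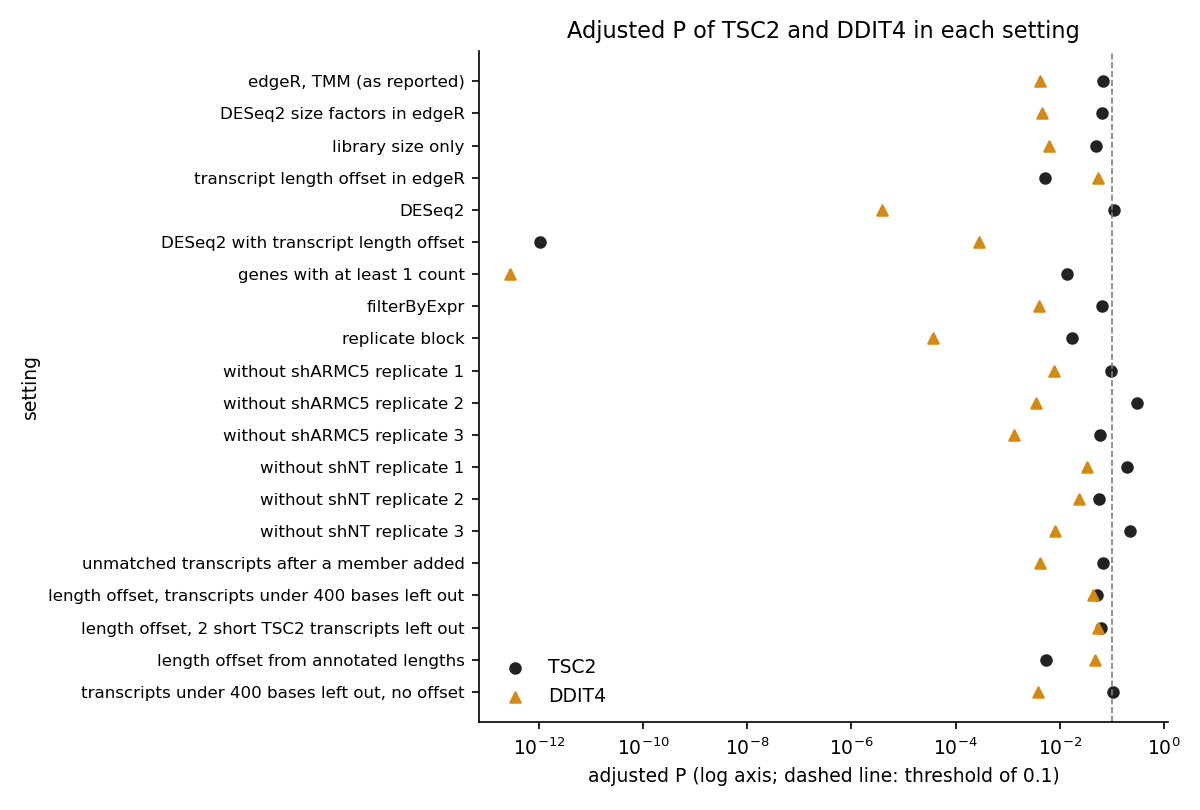
Adjusted P value of TSC2 (circles) and DDIT4 (triangles) on a log axis in the reported fit and in 19 alternative fits, with a dashed line at the threshold of 0.1. DDIT4 lies left of the line in every fit, at 0.0547 or less, and TSC2 lies right of it in 5 of the alternatives, at 0.105 to 0.301.

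The promoters of both called genes are shown because these 2 members moved in the same direction. RefSeq's entries (GRCh38.p14) cover 250 bases before and 50 after a start site and were found for 8 of the 10 genes, not for AKT1S1 and DEPTOR. For TSC2, which has 2 entries, the upstream one is given. The 3 motifs were searched on both strands and are in capitals. They are TGATGNAA, a core of the amino acid response element that the stress factor ATF4 binds, CACGTG, an E-box bound by MYC and by TFEB and TFE3, and ACGTG, the core of the hypoxia response element, which lies inside CACGTG.
DDIT4, chr10:72273674-72273973, plus strand: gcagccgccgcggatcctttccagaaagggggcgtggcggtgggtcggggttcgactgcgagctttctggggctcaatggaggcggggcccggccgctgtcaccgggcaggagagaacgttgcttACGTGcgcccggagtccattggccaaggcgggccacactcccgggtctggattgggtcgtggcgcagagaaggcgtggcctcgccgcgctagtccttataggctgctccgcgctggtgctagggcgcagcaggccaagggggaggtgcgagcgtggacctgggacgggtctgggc
TSC2, chr16:2047735-2048034, plus strand: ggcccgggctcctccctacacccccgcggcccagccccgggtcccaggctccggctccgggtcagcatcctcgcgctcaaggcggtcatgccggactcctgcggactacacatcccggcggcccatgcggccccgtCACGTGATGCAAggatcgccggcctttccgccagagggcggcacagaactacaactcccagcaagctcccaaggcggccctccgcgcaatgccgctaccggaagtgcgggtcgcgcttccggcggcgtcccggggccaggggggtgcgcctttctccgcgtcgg
The DDIT4 window held 1 ACGTG and no match to the others. In the TSC2 window all 3 motifs overlapped in 1 run of letters. TGATGNAA occurred in 3.62%, CACGTG in 7.26% and ACGTG in 21.4% of the 35116 promoters of this length. ACGTG also occurred in the windows of TBC1D7 and RHEB, which were not called. The other TSC2 entry and the windows of TSC1, SESN2, MTOR and RPTOR held none of the 3.

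SESN2, which encodes a stress-induced leucine sensor that restrains mTORC1 through GATOR2, lies on chromosome 1 from 28259518 to 28282491 on the plus strand (ENSG00000130766). Like DDIT4 it is a known target of stress pathways, and it had 31.3, 31.5 and 28.4 CPM in shARMC5 and 28.8, 31.0 and 27.9 CPM in shNT replicates 1, 2 and 3. The groups overlapped (log2 fold change 0.06, standard error 0.06, adjusted P = 0.681). It had a single listed transcript.

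MTOR, the kinase itself, lies on chromosome 1 from 11106535 to 11262556 on the minus strand (ENSG00000198793) and had the highest CPM of the 10 genes. It had 199.9, 187 and 178 CPM in shARMC5 and 204, 197 and 193 CPM in shNT replicates 1, 2 and 3. Replicate 1 of shARMC5 lay within the shNT range and the others below it. The MTOR log2 fold change of -0.07 (standard error 0.04) did not pass the threshold (adjusted P = 0.365). MTOR was called without shARMC5 replicate 1, which alone made the groups overlap (log2 fold change -0.12, adjusted P = 0.0815). Without any other single library it was not called (adjusted P = 0.341 to 0.689 in edgeR). RPTOR, the scaffold that recruits substrates to mTORC1, lies on chromosome 17 from 80544819 to 80966371 on the plus strand (ENSG00000141564). It had 60.4, 59.2 and 56.2 CPM in shARMC5 and 62.0, 60.9 and 55.0 CPM in shNT replicates 1, 2 and 3, and the groups overlapped (log2 fold change -0.016, standard error 0.05, adjusted P = 0.908). The MANE Select transcripts held 85.5% of the TPM of MTOR and 88.4% of that of RPTOR on average, with shares that overlapped between the groups.

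The 2 inhibitory subunits lay far apart in level. AKT1S1 encodes PRAS40, which is released from mTORC1 when AKT phosphorylates it, and lies on chromosome 19 from 49869033 to 49878459 on the minus strand (ENSG00000204673). It had 109.7, 103 and 110.7 CPM in shARMC5 and 100.6, 99.2 and 104.6 CPM in shNT replicates 1, 2 and 3. One shARMC5 library, replicate 2, lay within the shNT range (log2 fold change 0.09, standard error 0.04, adjusted P = 0.219). Its coding transcript ENST00000391832 held 25.5%, 27.8% and 30.8% of the AKT1S1 TPM in shARMC5 and 21.7%, 24.9% and 21.2% in shNT replicates 1, 2 and 3. These shares did not overlap, and the transcript had a log2 fold change of 0.39 (unadjusted P = 0.0108, adjusted P = 0.657 in edgeR). DEPTOR, which binds the kinase directly, lies on chromosome 8 from 119873717 to 120050918 on the plus strand (ENSG00000155792). It had 1.29, 1.47 and 1.15 CPM in shARMC5 and 1.47, 2.04 and 1.82 CPM in shNT replicates 1, 2 and 3, on 29 to 66 reads per library. The highest shARMC5 and the lowest shNT library nearly coincided in CPM, while in TPM the highest shARMC5 library had 0.883 and the lowest shNT library 0.923. Its log2 fold change of -0.44 was the most negative of the 10, and its standard error of 0.25 was the largest (unadjusted P = 0.0986, adjusted P = 0.382), so it was not called.

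Over the 10 genes 52 transcripts were tested on their own, and 0 were called by edgeR, against 0.00803% of the 49809 transcripts tested. At an unadjusted P value under 0.05 there were 3, the DDIT4 and AKT1S1 transcripts above and ENST00000496004 of RHEB (log2 fold change 1.39, unadjusted P = 0.0459). The usage of a transcript within its gene was tested with edgeR's diffSpliceDGE for 50 of them. It called 0 and gave 0 unadjusted P values under 0.05, with 0.148 as the smallest, while 0.322% of the 46237 transcripts tested this way were called. Of the 18 transcripts with at least 10% of their gene's TPM, 3 had shares that did not overlap between the groups, the 2 of TSC2 and the 1 of AKT1S1 given above. Over all tested genes this held for 9.2% of the 28684 such transcripts, so 3 of 18 is a description only. Salmon's uncertainty in dividing reads is not in these P values.

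The wider pathway was described with 88 genes in 6 lists by role, of which 85 were tested, the 10 genes included. Of the 85, 2 were called higher and 4 lower, which is 7.06% called and so near the 7.75% of all tested genes. Their median log2 fold change was -0.024. The TSC2 and DDIT4 results gave 1 of the 5 genes called in the list of the TSC complex and RHEB and 1 of 10 among the stress and energy inputs. Of the 12 mTOR complex and assembly genes and of the 12 growth factor inputs, which run from the insulin and IGF receptors to AKT, 0 were called by edgeR or DESeq2 without the length offset, and each list had 2 genes with an unadjusted P value under 0.05 in edgeR. With the offset in edgeR 1 growth factor input was called, PIK3R1, a regulatory subunit of PI3K, whose log2 fold change turned from -0.072 to 0.23 (adjusted P = 0.0714). The amino acid inputs, with the Rag GTPases, Ragulator, GATOR, KICSTOR and folliculin, had 1 of 28 called. SEC13, a GATOR2 subunit that is also part of COPII coats and nuclear pores, rose by 0.10 on the log2 scale (standard error 0.03, adjusted P = 0.0399).

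Among the 18 substrates and effectors 3 were called. EIF4EBP2, which encodes a repressor of cap-dependent translation that mTORC1 inactivates, had 258, 255 and 242 CPM in shARMC5 and 215, 217 and 219.8 CPM in shNT replicates 1, 2 and 3. It rose by 0.21 (standard error 0.03, adjusted P = 0.000326), with the groups well apart, and was called in all 19 alternative fits. PDCD4, an inhibitor of the helicase eIF4A that is degraded after S6 kinase phosphorylates it, had 48.2, 51.5 and 51.0 CPM in shARMC5 against 58.3, 56.9 and 58.6 CPM in shNT replicates 1, 2 and 3, and fell by 0.21 (standard error 0.04, adjusted P = 0.009). CAD, the enzyme that begins pyrimidine synthesis, had 255, 241 and 226 CPM in shARMC5 and 275, 259.6 and 266 CPM in shNT replicates 1, 2 and 3, and fell by 0.15 (standard error 0.04, adjusted P = 0.0758). The groups of both did not overlap. With the length offset in edgeR PDCD4, SEC13 and CAD were not called. PDCD4 kept its size there (log2 fold change -0.21, adjusted P = 0.264) and SEC13 nearly so (0.093, adjusted P = 0.257), while CAD shrank to -0.091 (adjusted P = 0.371). CAD was also not called with library size only (adjusted P = 0.108). With 1 library left out, SEC13 was also lost when this was replicate 2 (0.104) or 3 (0.138) of shARMC5 or replicate 1 of shNT (0.126), and CAD when it was replicate 2 (0.229) or 3 (0.107) of shARMC5 or replicate 1 (0.235) or 3 (0.183) of shNT.

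**Figure D5:**
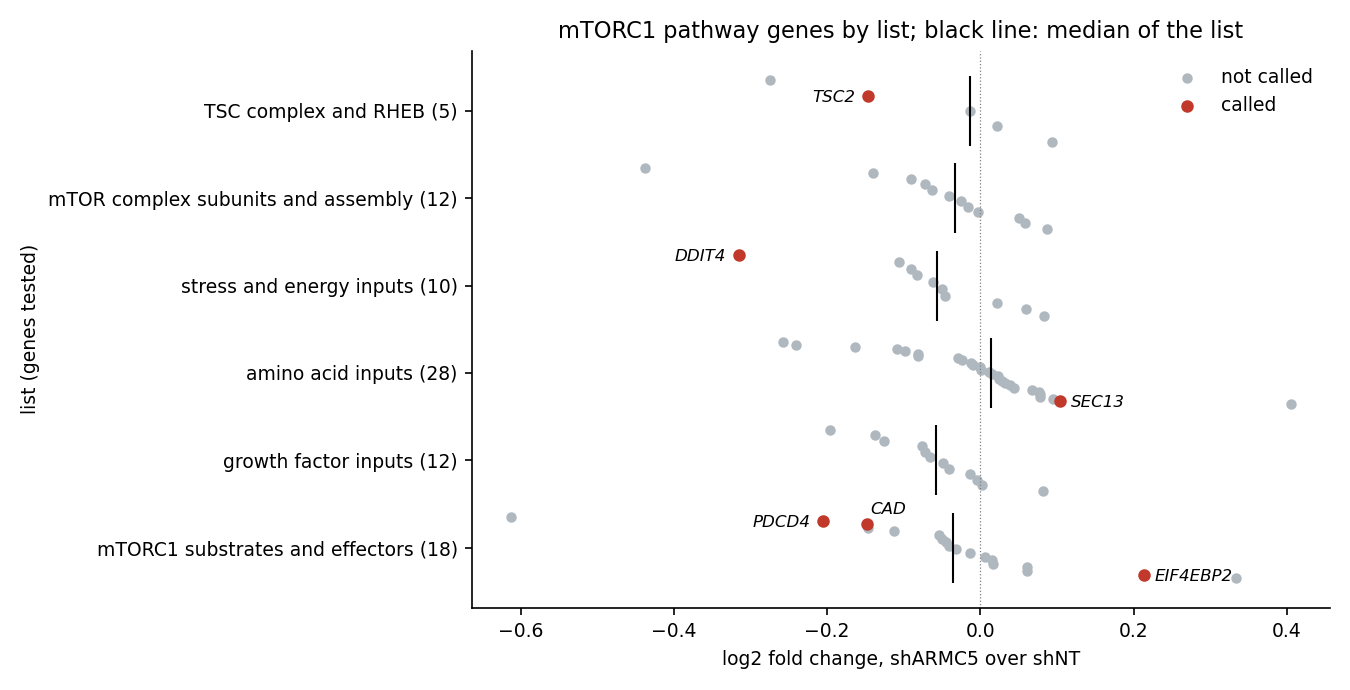
Log2 fold change of shARMC5 over shNT for the 85 tested genes of 6 mTORC1 pathway lists, with 1 point per gene, called genes in red and a black line at the median of each list. The 6 called genes lie between -0.32 (DDIT4) and 0.21 (EIF4EBP2), and the list medians between -0.057 and 0.013.

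The genes whose levels over the 6 libraries were most like those of the called members were found by the smallest root mean square difference of log2(CPM + 0.5), centred on the mean of each gene, over the 9332 genes that averaged 10 CPM or more. Nearest to TSC2 were ULK1 (0.0192), STARD10 (0.0196) and SYT7 (0.0217), with log2 fold changes of -0.15, -0.13 and -0.18. ULK1, the autophagy kinase, is itself on the list of mTORC1 substrates and was not called (adjusted P = 0.209), while STARD10 (0.0733) and SYT7 (0.0605) were. Nearest to DDIT4 were TSHZ1 (0.0262), SLC9A2 (0.0329) and SH3PXD2B (0.0381), which were all called lower, with log2 fold changes of -0.36, -0.35 and -0.25. For both members the choice uses the difference between the groups. Fold changes of like sign and size follow from it and are a description only.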

How the data were processed

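RNA-seq of 3 shARMC5 and 3 shNT libraries of SPT5-AID cells was analysed, grouped by the treatment in the labels. Per the labels and the methods of the study, the authors used cutadapt 4.2 to trim the reads and Salmon 1.9.0, with its GC correction and hg38, to quantify transcripts. The deposited files hold an estimated count, a TPM value, the length and the effective length of each transcript, not normalized between libraries. The transcript set is not given in the sources used here. Identifiers without version were matched to GENCODE 44, which placed 165533 of 177456 transcripts. The 11923 without a match held 2.96% to 3.04% of the reads and were left out. Of the 178 transcripts of the 10 genes, all kept, 157 had the same version. The sum of the estimated counts of a gene's transcripts was rounded, and genes that reached 10 counts in 3 or more libraries were tested with edgeR 4.0.16 (R 4.3.3), with TMM, a robust quasi-likelihood F test and condition as the only term. Benjamini-Hochberg adjustment ran over all tested genes, with a threshold of 0.1. Transcripts, their usage, and genes split by transcript type were tested likewise. The length offset was the average effective length weighted by TPM. Permutation tests were exact and two-sided. Tables were made with Python 3.11.15 and pandas 2.3.3.

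The total of 26201112 to 40866478 estimated reads limits the precision of genes with few reads such as DEPTOR. The members, the pathway lists and the tests were chosen with earlier results of these data known. Named are the 10 genes, ARMC5, at most 4 called genes each way per list, the 3 genes most like each called member, member transcripts with at least 10% of the gene's TPM, and genes that share exon bases with a member, of which 1 is not reported here. The single TSC2 transcripts with few reads, PIK3R1 and ENST00000496004 were named after their values were seen. Alternatives were DESeq2 1.42.0 without and with the length offset, its size factors or library size alone in edgeR, other filters, a replicate term, an adjusted P value under 0.05, unmatched transcripts listed after a member added to it, and each library left out. Added after seeing the data were offsets without transcripts under 400 bases, without 2 short TSC2 transcripts or from annotated lengths, a fit without transcripts under 400 bases, and the split by transcript type. Only the gene tests of edgeR and DESeq2 without the length offset were tried on simulated counts, with the same spread for every gene. The transcript, usage and length-offset fits were not tried in this way.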

Additional observations from a re-analysis of the deposited data

How the results depend on the processing

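Against 1064 genes called, edgeR called 235 with the length offset, 241 with it and without transcripts under 400 bases, 232 without the 2 short TSC2 transcripts and 254 from annotated lengths, DESeq2 with the offset called 568, and 676 had an adjusted P value under 0.05. With 1 library left out the count lay between 536 and 1085. Of the 10 genes, 1 was called with DESeq2, without transcripts under 400 bases and no offset, and at an adjusted P value under 0.05, and 1 to 3 with 1 library left out. Of the pathway genes 3 to 10 were called with 1 library left out. A term for the replicate number (a block) called 1766 genes, 13 pathway genes and 5 of the 10 genes, adding RHEB (adjusted P = 0.0848), MTOR (0.0784) and AKT1S1 (0.0845). Deviations from the group means correlated between -0.0357 and -0.00929 for libraries of the same number, and none correlated best with its own number. The labels do not say whether libraries of the same number are paired. These correlations cannot exclude it, since they count all tested genes alike, those with few reads included. Among transcripts with at least 1 count, usage was called for 1 member transcript, TSC2 ENST00000439673. TSC1 turned sign with the length offset (-0.0025 in edgeR, -0.0038 in DESeq2, -0.00097 without transcripts under 400 bases and -0.00062 without the short TSC2 transcripts) and RPTOR with the last pair of these (0.00019 and 0.00042). With 1 library left out, log2 fold changes ran from -0.0295 to 0.0639 for TSC1, -0.0398 to 0.0147 for TBC1D7 and -0.0669 to 0.0176 for RPTOR, and none was called. Average lengths did not overlap for 0 of the 10 genes over transcripts with at least 10 counts in 3 libraries, and for 1 to 3 with 1 library left out (20.7% to 25.2% of all tested genes), where 3 to 6 of the 18 transcript shares did not overlap (17.7% to 18.4% over all tested genes). The cause of these differences was not tested. DEPTOR and many single transcripts rest on few reads.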
